A study of Mus musculus with 10 samples.

Results

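The Zfp36 and Gadd45 stress families were followed in keratinocytes of a mouse model of Hutchinson-Gilford progeria (HGPS). The 6 genes (Zfp36, Zfp36l1, Zfp36l2, Gadd45a, Gadd45b and Gadd45g) were chosen by name, with the fold changes of these data already known, and kept on their status of OK in the tables of both layers. All 6 were found, 3 in each family, each as a locus naming that single gene, out of 11290 loci of status OK in basal and 11464 in suprabasal cells. All 6 stood above 5 FPKM in every group.

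RNA was sequenced from skin keratinocytes of FVB/N mice at postnatal day 4, isolated and separated by FACS into basal and suprabasal cells. Wild type mice gave 3 basal and 3 suprabasal samples. Bitransgenic HGPS (BT) mice gave 2 basal and 2 suprabasal samples, and the title of the series names progerin, a truncated lamin A, as the accumulating protein. The promoters that drive the transgenes are not given in the sources used here, nor whether a sample holds 1 animal or several. Each group is represented in the deposited tables by 1 pooled level per locus, read as FPKM, which scales fragments by transcript length and library size. No level therefore has a spread between samples, and how deeply each library was sequenced cannot be told. The p-values measure only the spread between the samples that the authors' test used.

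Proteins of the ZFP36 family (tristetraprolin, encoded by Zfp36, and its relatives encoded by Zfp36l1 and Zfp36l2) carry CCCH zinc fingers that bind AU-rich elements in the untranslated tails of mRNAs and recruit the deadenylases that destroy those mRNAs. They are known for limiting cytokine and growth factor mRNAs, and their own mRNAs are short-lived and induced quickly by serum, cytokines and stress. The GADD45 proteins are small acidic proteins without a known catalytic activity. They bind partners such as PCNA, p21, CDK1 and the kinase MEKK4, and link DNA damage and other stress to growth arrest and to p38 and JNK signalling. Gadd45a is a textbook target of p53, Gadd45b of NF-kappaB and TGF-beta, and Gadd45g of cytokines.

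The promoters are shown because all 6 levels were lower in bitransgenic than in wild type suprabasal cells. The RefSeq promoter table (GRCm38.p6) matched 5 of the 6 genes, all but Zfp36l2. The sequences below are the 250 bases upstream of the annotated start of 4 of them, 5′ to 3′ on the gene's strand, with matches to the motifs searched in capitals. They lie at chr7:28379229-28379478 for Zfp36 (minus strand), chr6:67037408-67037657 for Gadd45a (minus strand), chr10:80929841-80930090 for Gadd45b (plus strand) and chr13:51846425-51846674 for Gadd45g (plus strand). In the GENCODE M21 annotation Zfp36 reaches to 28380253, Gadd45a to 67037457, and Gadd45b begins at 80930073. The windows of these genes therefore overlap the genes as annotated there, and distances hold for the RefSeq start alone.
Zfp36: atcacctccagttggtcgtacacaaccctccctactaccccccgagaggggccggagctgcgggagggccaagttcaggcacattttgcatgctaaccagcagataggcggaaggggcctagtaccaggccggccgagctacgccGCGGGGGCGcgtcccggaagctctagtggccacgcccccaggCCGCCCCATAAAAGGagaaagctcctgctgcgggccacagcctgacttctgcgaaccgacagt
Gadd45a: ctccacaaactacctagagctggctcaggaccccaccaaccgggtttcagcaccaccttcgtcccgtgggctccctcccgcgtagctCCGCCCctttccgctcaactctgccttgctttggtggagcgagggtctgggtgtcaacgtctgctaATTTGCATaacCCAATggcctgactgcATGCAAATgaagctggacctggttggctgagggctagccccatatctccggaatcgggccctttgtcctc
Gadd45b: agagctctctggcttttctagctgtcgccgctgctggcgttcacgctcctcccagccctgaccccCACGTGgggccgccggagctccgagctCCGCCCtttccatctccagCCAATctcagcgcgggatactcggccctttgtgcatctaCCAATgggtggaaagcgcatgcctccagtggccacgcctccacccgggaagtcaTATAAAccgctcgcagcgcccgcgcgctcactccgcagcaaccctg
Gadd45g: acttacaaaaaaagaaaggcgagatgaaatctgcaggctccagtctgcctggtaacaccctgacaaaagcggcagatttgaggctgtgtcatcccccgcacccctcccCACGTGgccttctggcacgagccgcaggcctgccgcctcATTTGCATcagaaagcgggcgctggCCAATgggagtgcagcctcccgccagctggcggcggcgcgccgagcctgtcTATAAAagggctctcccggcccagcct

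The motifs were picked after the sequences had been seen, and a match is only a match of letters. Each was searched on both strands, except the TATA box on the gene's strand alone. The CArG box, the letter pattern of serum response elements, was matched in Zfp36 and in 1.47% of the 32851 promoters of the table. It overlapped by 1 base a match to the GC box (GGGCGG), which was also found in Gadd45a and Gadd45b and in 32.7% of promoters. Zfp36 also held the EGR pattern (GCGGGGGCG), matched in 2.57% of promoters. The octamer-like pattern (ATTTGCAT) was found in Gadd45a, at 2 places, and in Gadd45g, against 1.6% of all promoters. The E-box (CACGTG) was found in Gadd45b and Gadd45g and in 6.02% of promoters. The CCAAT box (CCAAT) was found in all 3 Gadd45 promoters and in Zfp36l1, against 33.8% of promoters. The TATA box (TATAAA) stood in Gadd45b, Gadd45g and Zfp36l1 and in 7.59% of promoters, and in Zfp36l1 it shared 1 base with the CCAAT box. The AP-1 pattern (TGANTCA) was found only in Zfp36l1 among the 5, against 6.75% of promoters. The cyclic AMP pattern (TGACGTCA, 1.55% of promoters) and the heat shock pattern (GAANNTTC, 6.69%) had no match in these 5 windows.

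**Figure D1:**
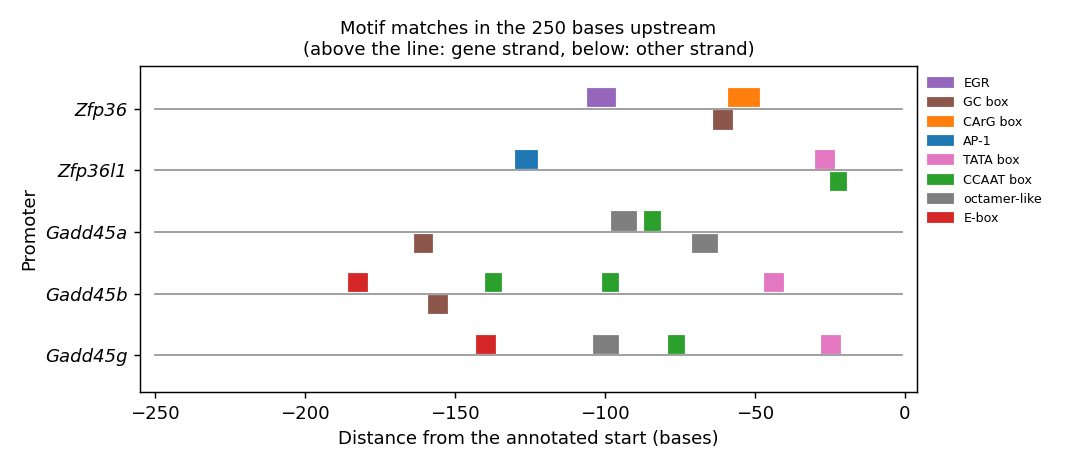
Motif matches in the 250 bases upstream of the annotated start, 1 line per promoter, with the distance from the start in bases on the x axis. Boxes above a line are matches on the gene's strand (palindromes included) and boxes below it on the other strand; the E-box appears in Gadd45b and Gadd45g, and the octamer-like pattern in Gadd45a and Gadd45g.

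The families differed in the longer of the AU-rich elements searched in the tails of the mRNAs. The AU-rich nonamer that ZFP36 proteins bind best (TTATTTATT in DNA letters) was found once in the 3′ untranslated region of each Zfp36 family mRNA and in none of the 3 Gadd45 mRNAs. Of 21020 mouse genes with an annotated 3′ region, 6.98% held it. Each match is shown in capitals with its neighbouring bases, from GENCODE M21 transcripts (GRCm38).
Zfp36: atgacgactTTATTTATTgtattaaga
Zfp36l1: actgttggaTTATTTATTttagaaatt
Zfp36l2: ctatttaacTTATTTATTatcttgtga
The match began 589 bases after the stop codon in Zfp36, 1404 in Zfp36l1 and 821 in Zfp36l2. Among 3′ regions within 1.5 times their lengths (774, 1835 and 1822 bases), 5.60%, 9.99% and 9.78% held the nonamer. For the lengths of Gadd45a, Gadd45b and Gadd45g the shares were 3.7%, 3.77% and 3.25%, so most regions of such length lack it. The shorter pentamer (ATTTA) occurred 3 times in Zfp36, 9 times in Zfp36l1, 5 times in Zfp36l2 and 2 times in Gadd45a. Per kilobase that is 3.88, 4.9, 2.74 and 3.55, so the pentamer did not set Gadd45a apart from the Zfp36 family. It was absent from Gadd45b and Gadd45g, whose 3′ regions span 558 and 489 bases.

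In wild type cells the 13 basal keratinocyte markers summed to 19192 FPKM in basal and 8938 FPKM in suprabasal cells, and the 14 suprabasal markers to 8797 and 18953 FPKM. Most of the basal marker sums came from merged loci. The locus of Krt5, which also holds Krt2, Krt6b and other keratin genes, had 11677 and 5147 FPKM in wild type and 6923 and 2591 FPKM in bitransgenic cells. The locus of Krt14 and Krt16 had 4375 and 1994 FPKM in wild type cells. Neither locus was called in either layer. In bitransgenic cells the basal markers summed to 12335 FPKM in basal and 4936 FPKM in suprabasal cells, with 12 of 13 and 10 of 13 log2 fold changes below 0. Krt15, a basal keratin gene, fell from 1602 to 308 FPKM in basal and from 1025 to 124 FPKM in suprabasal cells. The suprabasal markers summed to 10888 FPKM in bitransgenic basal and 14406 FPKM in bitransgenic suprabasal cells. Of their log2 fold changes, 8 of 14 and 9 of 14 lay above 0. The higher sum in bitransgenic basal cells rests on the uncalled Krtdap (4173 to 6915 FPKM). In basal cells Dsc1 was called higher (13.7 to 38.1 FPKM) and Lor lower (17.2 to 3.18 FPKM). In suprabasal cells the median log2 fold change of the 14 suprabasal markers was 0.09. The lower sum there rests on the uncalled Krt10 (6574 to 2354 FPKM) and Krt1 (3419 to 1622 FPKM). Each layer's table was normalized on its own. Markers of leukocytes, in which Zfp36 is also highly expressed, were nearly absent from the tables: 1 of 14 was measured, Cd74, at 5.02 to 7.14 FPKM over the 4 groups. Of 6 endothelial markers 1 was measured in basal and none in suprabasal cells. Melanocyte markers, all 8 measured in suprabasal cells, summed to 2073 FPKM in wild type and 3843 FPKM in bitransgenic suprabasal cells, against 8.38 and 12.9 FPKM for the 3 measured in basal cells. Fibroblast markers summed to 22.0 and 14.7 FPKM (4 of 10) in basal and to 345 and 533 FPKM (7 of 10) in suprabasal cells, where Vim, which melanocytes also express, made up most of both sums. The Xist locus, a mark of female cells, stood at 0.258 FPKM in wild type and 108 FPKM in bitransgenic basal cells and at 0.236 and 103 FPKM in suprabasal cells, and the Y-linked Ddx3y at 32.1 and 20.7 FPKM and at 31.2 and 14.1 FPKM. The sex of the animals and the genotype therefore cannot be told apart. The part of the keratinocyte markers' shift, of melanocyte RNA and of sex in the values below was not tested. In sorted cells, fewer cells of a type and less RNA per cell cannot be told apart either.

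In basal cells, Gadd45g and Zfp36l2 fell in bitransgenic cells, to 47.6% and 53.3% of the wild type level. Zfp36, the most abundant member, stood at 60.8% of wild type without passing the authors' threshold, and Zfp36l1, Gadd45b and Gadd45a at 79.0%, 84.0% and 106% did not pass either. In suprabasal cells the same 2 genes fell past that threshold, Gadd45g to 23.4% and Zfp36l2 to 39.4% of wild type. The other members were also lower there without passing: Zfp36 at 43.7%, Gadd45b at 45.7%, Zfp36l1 at 70.6% and Gadd45a at 70.7%. A gene is called here when its q, the adjusted p of the authors' deposited table, is under 0.05. The count of members called lower was 2 of 6 in basal cells, where 1.39% of all loci were called lower and 0.257% higher, and 2 of 6 in suprabasal cells, where 0.419% of all loci were called lower and 0.0523% higher. No member was called higher in either layer. Since the members were chosen with these fold changes known, nothing is read from the counts. Each log2 fold change is printed with ± its standard error (SE), derived from the authors' p.

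**Figure D2:**
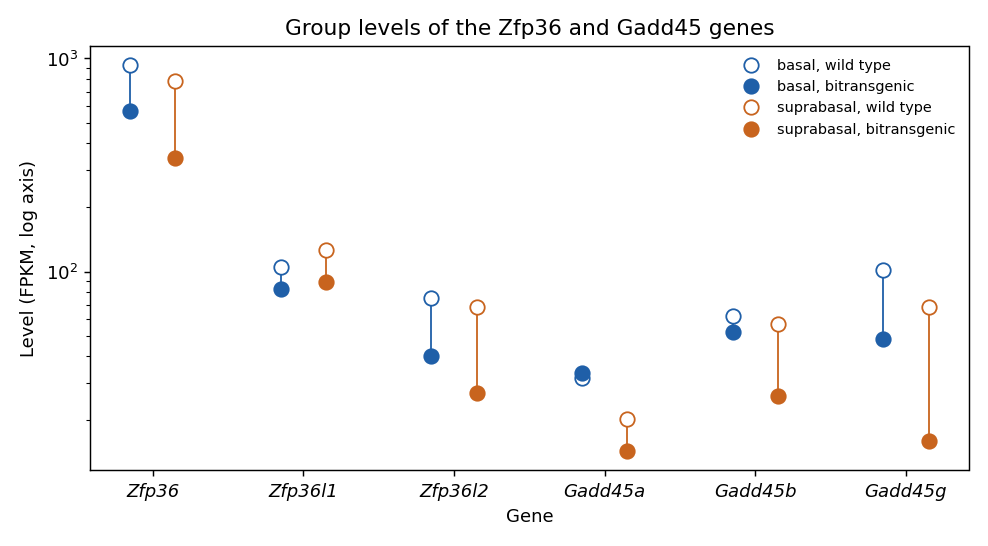
Level of each gene (FPKM, log axis) in the 4 groups, with wild type as open and bitransgenic as filled circles, joined within a layer; each point is the authors' single pooled value, so there are no error bars. The filled circle lies below the open one in every pair except Gadd45a in basal cells.

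Zfp36 encodes tristetraprolin and lies on chromosome 7 from 28376784 to 28379255 (mm10, 2 exons). Its level was 930 FPKM in wild type and 565 FPKM in bitransgenic basal cells, and 784 FPKM in wild type and 343 FPKM in bitransgenic suprabasal cells. Both wild type groups were above both bitransgenic groups. The log2 fold change was -0.72 ± 0.51 in basal and -1.19 ± 0.49 in suprabasal cells, and the authors' deposited table gives q = 0.466 and 0.234. The wild type basal level was at the 99.5th percentile of all loci.

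Zfp36l1, whose protein shares the zinc fingers and helps to restrain proliferation in several cell types, lies on chromosome 12 from 80107760 to 80113309. It had 105 FPKM in wild type and 83.2 FPKM in bitransgenic basal cells, and 126 and 89.2 FPKM in suprabasal cells. It was the only one of the 6 with a higher level in suprabasal than in basal wild type cells. Its fold changes were the smallest of the family, -0.34 ± 0.28 and -0.50 ± 0.36 on the log2 scale. Neither passed, with q = 0.562 and 0.788 in the authors' deposited table.

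Zfp36l2, on chromosome 17 from 84183931 to 84187947, encodes the third of these proteins, known for its part in lymphocyte and blood cell development. It went from 75.1 to 40.0 FPKM in basal and from 68.5 to 27.0 FPKM in suprabasal cells. As for Zfp36, both wild type groups were above both bitransgenic groups. The log2 fold changes were -0.91 ± 0.26 and -1.34 ± 0.37, with q = 0.0371 and 0.0394 in the authors' deposited table. Both calls ended when the authors' p was readjusted by Benjamini-Hochberg over the analysed loci (adjusted p = 0.0664 and 0.0541).

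Summed over the family, Zfp36 mRNAs stood at 1110 FPKM in wild type and 689 FPKM in bitransgenic basal cells, and at 979 and 459 FPKM in suprabasal cells. Zfp36 itself made up 83.7% and 80.1% of the wild type sums, so the sums mostly repeat that gene. Bitransgenic cells had 62.0% of the wild type sum in basal and 46.9% in suprabasal cells.

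Gadd45a, the p53-responsive member, had 31.5 FPKM in wild type and 33.5 FPKM in bitransgenic basal cells, and 20.4 and 14.4 FPKM in suprabasal cells. The groups were ordered by layer, with both basal groups above both suprabasal ones, unlike in the other members. The log2 fold changes were 0.09 ± 0.34 and -0.50 ± 0.45, with 95% intervals from -0.57 to 0.74 and from -1.39 to 0.39, and neither was called (q = 0.926 and 0.848 in the authors' deposited table). Of the p53 target Cdkn1a, a partner listed below, the levels were 119 and 138 FPKM in basal and 164 and 135 FPKM in suprabasal cells. The deposited locus of Gadd45a runs on chromosome 6 from 67034814 to 67080654, far past the gene's own 2362 bases, because it also covers E230016M11Rik, a noncoding gene on the other strand. The noncoding gene has a basal entry of its own, at 3.33 and 0.695 FPKM. The labels describe the libraries as strand-specific, and whether the counting used the strand is not given in the sources used here.

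Gadd45b, on chromosome 10 from 80930082 to 80932204, is induced early by inflammatory and stress signals. It had 62.2 FPKM in wild type and 52.2 FPKM in bitransgenic basal cells, and 57.0 and 26.0 FPKM in suprabasal cells. The bitransgenic suprabasal group stood apart, while the other 3 groups lay between 52.2 and 62.2 FPKM. The log2 fold changes were -0.25 ± 0.30 and -1.13 ± 0.39, and neither was called (q = 0.719 and 0.141 in the authors' deposited table).

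Gadd45g, on chromosome 13 from 51846678 to 51848921, had the largest fold change of the 6 genes in both layers. Its level was 101 FPKM in wild type and 48.3 FPKM in bitransgenic basal cells, and 68.5 FPKM in wild type and 16.0 FPKM in bitransgenic suprabasal cells. The 4 groups spanned 6.35-fold, against 1.52-fold to 2.78-fold for the other members. The log2 fold changes were -1.07 ± 0.33 and -2.10 ± 0.52, the second SE being an upper bound because the authors' p of 5e-05 is the smallest in the table. The authors' deposited table gives q = 0.0371 and 0.0161. When the authors' p was readjusted by Benjamini-Hochberg over the analysed loci, the basal call ended (adjusted p = 0.120) and the suprabasal call held (0.0164). In suprabasal cells its log2 fold change was the 201st lowest of 11464 loci.

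The Gadd45 mRNAs together stood at 195 FPKM in wild type and 134 FPKM in bitransgenic basal cells, and at 146 and 56.4 FPKM in suprabasal cells. Gadd45g was the most abundant of the 3 in both wild type layers. In bitransgenic cells Gadd45b was the most abundant of the family in both layers.

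**Figure D3:**
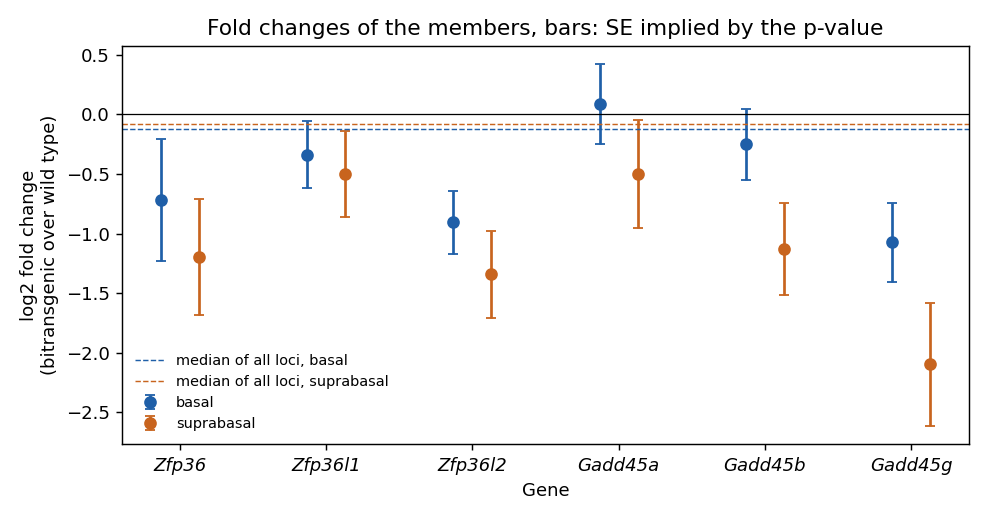
Log2 fold change of bitransgenic over wild type for each gene in basal and suprabasal cells, with bars of 1 SE as implied by the authors' p and dashed lines at the median of all loci (-0.12 in basal, -0.08 in suprabasal cells). The suprabasal point lies below the basal one for all 6 genes, and the bars of the layers do not overlap for Gadd45b and Gadd45g.

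As a group the 6 genes had a median log2 fold change of -0.53 in basal cells, beside -0.12 over all loci, and 5 of 6 lay below 0, as did 60.3% of all loci. In suprabasal cells the median was -1.16, beside -0.08 over all loci, and 6 of 6 lay below 0, as did 56.6% of all loci. Centring on loci with at least 1 FPKM in both groups shifts every log2 fold change by 0.11 in basal and 0.08 in suprabasal cells. It left all 6 directions as they were in both layers, Gadd45a in basal cells standing at 0.20 after it.

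The suprabasal fold change was below the basal one for each of the 6 genes, but no difference between the layers passed its test. The difference of the log2 fold changes, suprabasal minus basal, was -1.03 ± 0.61 for Gadd45g, -0.88 ± 0.49 for Gadd45b and -0.59 ± 0.56 for Gadd45a. For Zfp36 it was -0.48 ± 0.70, for Zfp36l2 -0.44 ± 0.45 and for Zfp36l1 -0.16 ± 0.46. A two-sided Wald z-test with Benjamini-Hochberg adjustment over the 10583 loci measured in both layers gave an adjusted p of 0.9999 for each gene, and the smallest unadjusted p was 0.0733, for Gadd45b. Independent layers are assumed in it, yet 4 of 6 title stems of the samples recur in both. Of all loci 0.0378% passed that test, and 50.7% had the lower fold change in suprabasal cells. The 95% interval of the difference reached from -2.23 to 0.18 for Gadd45g and from -1.84 to 0.08 for Gadd45b, and both include 0. For Gadd45g the interval rests on the upper bound of its suprabasal SE and is at its widest.

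Because of the separate normalization, every ratio, order or span across layers also carries the scales of the tables. The median suprabasal level was 0.991 times the basal one in wild type and 1.03 times in bitransgenic cells. In wild type cells the ratio of suprabasal to basal level was 0.843 for Zfp36, 1.20 for Zfp36l1 and 0.912 for Zfp36l2. It was 0.646 for Gadd45a, 0.917 for Gadd45b and 0.675 for Gadd45g. In bitransgenic cells the same ratio was 0.606 for Zfp36, 1.07 for Zfp36l1 and 0.674 for Zfp36l2. It was 0.430 for Gadd45a, 0.499 for Gadd45b and 0.331 for Gadd45g. Scaling the tables to the same median level moved no ratio across 1.

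Likeness between genes was measured as the distance between their log2(FPKM + 1) levels over the 4 groups, each gene centred on its own mean. Zfp36 and Zfp36l2 were the closest pair of members, at a distance of 0.205, and Zfp36l1 and Gadd45g the farthest apart, at 1.71. Among 8623 single-gene loci, Zfp36 was nearest to Cxcl10, an interferon-induced chemokine (distance 0.0464), which had 33.9 and 20.6 FPKM in basal and 28.6 and 12.4 FPKM in suprabasal wild type and bitransgenic cells. The next nearest was Fjx1 (0.0983). The nearest genes were Rufy3 and Med22 for Zfp36l1, Heph and Dgkq for Zfp36l2, Rasgrp1 and Car12 for Gadd45a, and Mrfap1 and Rplp2 for Gadd45b. Gadd45g had the most distant neighbours, Slc24a3 (0.119) and Tmem246 (0.142). In bitransgenic suprabasal cells they stood at 0.627 and 0.724 FPKM, below the 1 FPKM added before the log. With the distance taken over both log2 fold changes alone, Cxcl10 was the only one of these 12 genes that stayed among the 2 nearest.

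The mRNAs that ZFP36 proteins are known to bind did not move one way in basal cells. Of 27 measured genes with AU-rich elements, 11 with the nonamer, 2 rose and 2 fell in basal cells, where 0.257% of all loci were called higher and 1.39% lower. Ccl20, a chemokine gene, had 56.9 FPKM in wild type and 180 FPKM in bitransgenic cells (1.66 ± 0.47 on the log2 scale). Tnf, the gene of tumour necrosis factor, had 6.71 and 20.7 FPKM (1.63 ± 0.45). Fos, an AP-1 transcription factor gene, had 1120 and 365 FPKM (-1.62 ± 0.52), and Socs3, a brake on cytokine signalling, 117 and 48.5 FPKM (-1.26 ± 0.33). Which of these 4 calls held depended on the setting. Readjusting the authors' p by Benjamini-Hochberg over the analysed loci kept only that of Socs3 (adjusted p = 0.0217, with 0.0549 for Ccl20 and Tnf). Centring, with the authors' p recomputed and readjusted by Benjamini-Hochberg, kept only Ccl20 and Tnf (adjusted p = 0.0481 for both, with 0.0754 for Socs3). The median of the list was -0.03 and 13 of 27 lay above 0. Centring moved the basal medians of the 5 pathway lists, all below 0 before it, to between 0.05 and 0.10. In suprabasal cells, where 0.419% of all loci were called lower, Socs3 alone was called of 25 measured, going from 74.6 to 22.1 FPKM (-1.76 ± 0.43), and 20 of 25 lay below 0 with a median of -0.42 (-0.08 over all loci). The SE of Socs3 in suprabasal cells is an upper bound, as for Gadd45g. Fos had 867 and 332 FPKM there without a call.

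For the machinery that ZFP36 proteins recruit, 36 genes for deadenylation, decapping and mRNA digestion had medians of -0.01 in basal and -0.12 in suprabasal cells. None was called in either layer, and with 1.39% of all loci called lower and 0.257% higher in basal cells, and fewer in suprabasal cells, that count says nothing particular of the list. The scaffold of the deadenylase complex, Cnot1, had 33.4 and 40.8 FPKM in basal and 24.98 and 30.5 FPKM in suprabasal cells. The gene of the list with the highest wild type basal level, the antiproliferative deadenylation factor Btg2, had 162 and 94.5 FPKM in basal and 171 and 83.0 FPKM in suprabasal cells (log2 fold changes of -0.78 ± 0.30 and -1.05 ± 0.37). None of 15 other mRNA stability proteins passed either. Hnrnpd, which encodes the AU-rich element binding protein AUF1, had 226 and 217 FPKM in basal and 160 and 153 FPKM in suprabasal cells.

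For a list of GADD45 partners and related stress genes, 18 measured in basal and 16 in suprabasal cells, the medians were -0.04 and -0.05. Neither they nor the kinases around them held a called gene, which at the same shares over all loci says nothing particular of lists of this size. Pcna, the sliding clamp of DNA replication, had 85.1 and 97.2 FPKM in basal and 57.4 and 51.0 FPKM in suprabasal cells. Ppp1r15a, also known as Gadd34, was listed as a related stress gene and had the highest wild type basal level of this list. Its levels were 135 and 102 FPKM in basal and 109 and 50.7 FPKM in suprabasal cells. Map3k4, which encodes MEKK4, had 6.45 and 5.84 FPKM and 8.65 and 7.23 FPKM. Of 19 loci for p38 and JNK kinases and their phosphatases in basal and 20 in suprabasal cells, the medians were -0.06 and -0.09. Dusp1, a phosphatase of these kinases, had the highest level of that list, 460 and 257 FPKM in basal and 276 and 118 FPKM in suprabasal cells, and was not called. Mapkapk2, the kinase that phosphorylates tristetraprolin, had 21.4 and 25.4 FPKM and 24.2 and 27.2 FPKM.

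Genes of the immediate early and heat shock responses, which react to cell handling as well as to signals, had lower levels alongside the members. The list shares Dusp1, Fos, Ier3 and Jun with the AU-rich targets and Btg2 with the decay machinery. Of its 26 loci, 9 fell and none rose in basal cells (1.39% and 0.257% of all loci), with a median of -0.85 and 24 of 26 below 0, and 5 of the 9 calls held when the authors' p was readjusted. Suprabasal cells had 6 called lower (0.419% of all loci) and none higher (0.0523%), with a median of -1.16 and 25 of 26 below 0, and all 6 calls held. After centring as well, 3 basal and 4 suprabasal calls of the list were left. The shares of all loci called under readjustment and centring are not given here. The summed level was 13820 FPKM in wild type and 3846 FPKM in bitransgenic basal cells, of which the uncalled Hspa8 made up 7624 and 1026 FPKM, and 5303 and 2201 FPKM in suprabasal cells. Ier2, an immediate early gene, went from 176 to 71.5 FPKM in basal and from 139 to 41.8 FPKM in suprabasal cells, and Klf2 from 15.8 to 2.44 and from 15.7 to 3.81 FPKM. The uncalled Nr4a1 had 89.1 and 87.2 FPKM in basal and 98.5 and 70.9 FPKM in suprabasal cells, so the list was not uniform. The part of this list's change in the values of the Zfp36 and Gadd45 genes was not tested.

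**Figure D4:**
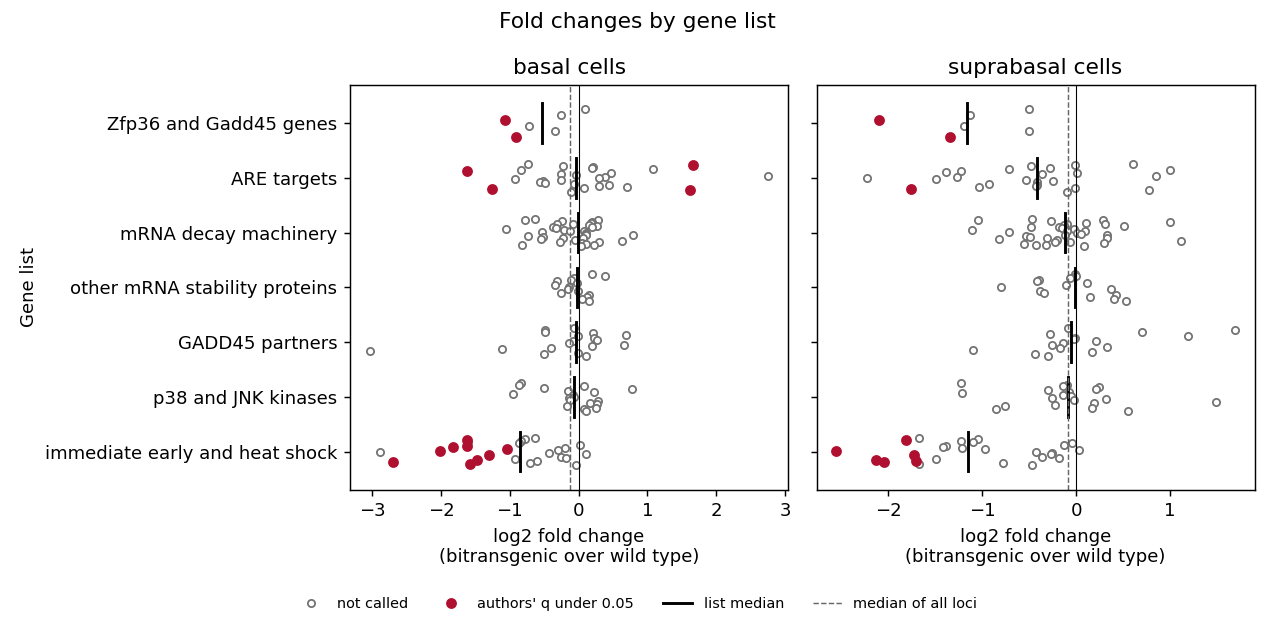
Log2 fold change of bitransgenic over wild type for every measured locus of 7 gene lists in basal (left) and suprabasal cells (right), with called loci filled, list medians as black bars and the median of all loci dashed. The medians of the Zfp36 and Gadd45 genes (-0.53 and -1.16) and of the immediate early and heat shock genes (-0.85 and -1.16) lie to the left. That of the AU-rich targets is -0.03 in basal and -0.42 in suprabasal cells. Those of the decay machinery, the partners and the kinases lie between -0.12 and -0.01.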

How the data were processed

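The authors made the tables with TopHat, Cufflinks and the mm10 build, per the submitters' processing notes, which give no versions. There was 1 deposited table per layer, in the form of Cuffdiff output, with 1 level per group read as FPKM because the header names no unit. The deposited log2 fold changes, p-values and q-values were used as given, and the scaling of the libraries is not given in the sources used here. The authors' test statistic (a score) was not used. 

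Loci of status OK were kept, and members and listed genes were matched by symbol. Starts are given 1-based. The SE of a log2 fold change was its absolute value over the normal quantile that gives the authors' two-sided p. The difference between layers was tested by a Wald z-test over all shared loci, which treats the layers as independent although 4 of 6 title stems recur in both. The calculations were tested on simulated data. The genes named were the 6 members, their 2 nearest genes by profile (single-symbol loci other than predicted models, at least 5 FPKM in the highest group), the called genes of the pathway lists and the most abundant gene of each such list; Cdkn1a, Cnot1, Pcna, Map3k4, Mapkapk2 and the genes of the marker and immediate early lists were named after their values were seen. Members and lists were chosen with earlier results of these data known. Promoters came from RefSeq and 3′ regions from GENCODE M21, taking per gene the coding transcript of the longest coding sequence. Alternatives were centring, readjustment, pseudocounts of 1 and 5 FPKM, other q thresholds, a minimum of 5 FPKM, leaving out merged loci and rescaling. Python 3.11.15, pandas 2.3.3 and scipy 1.17.1 were used.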

Additional observations from a re-analysis of the deposited data

How the results depend on the processing

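No member changed direction in either layer under centring. Readjustment and pseudocounts of 1 and 5 FPKM cannot change a direction, so they say nothing on this. No layer difference changed direction after centring or passed the threshold after it. A minimum of 5 FPKM removes no member and leaves their differences as they were, and none passed with the adjustment over the remaining loci. Readjusting the authors' p by Benjamini-Hochberg ended the calls of Zfp36l2 in basal (-0.91, adjusted p = 0.0664) and suprabasal cells (-1.34, 0.0541) and of Gadd45g in basal cells (-1.07, 0.120). Centring with Benjamini-Hochberg readjustment of the authors' p ended the same calls (-0.80, -1.26 and -0.96, adjusted p of 0.202, 0.110 and 0.268). Gadd45g in suprabasal cells stayed called after centring with Benjamini-Hochberg readjustment of the authors' p (adjusted p = 0.0384). The count of members called, 2 in each layer, was 0 in basal cells under readjustment and under centring, and 1 in suprabasal cells under each. It was 0 in both layers at q under 0.01. At q under 0.1 it was 2 in both. The pathway lists together held 4 called loci of 111 in basal cells, 1 after readjustment (Socs3) and 2 after centring (Ccl20 and Tnf), and 1 of 108 in suprabasal cells under every setting run. At the authors' q, 1.39% of all loci were called lower and 0.257% higher in basal cells, and 0.419% and 0.0523% in suprabasal cells. Shares of all loci under readjustment and centring are not given here, so nothing is read from the counts that moved. No paired analysis was possible because only pooled group values were analysed here, and no replicate could be left out for the same reason. Depth is unknown, so the precision of a level cannot be given.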

Other observations

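Across all single-gene loci with an annotated 3′ region, those with the AU-rich nonamer were also described. In basal cells the 665 loci with it had a median log2 fold change of -0.11, beside -0.12 for the 8509 without it, and 2.41% (2.27% without the Zfp36 genes) against 1.75% were called in either direction. In suprabasal cells the 698 loci with it had a median of -0.12, beside -0.09 for the 8762 without it, and 0.716% (0.576% without the Zfp36 genes) against 0.479% were called. The called basal loci with the nonamer were 15 lower and 1 higher, the higher one being Tnf. Besides Zfp36l2 and Fos they included the AP-1 family genes Fosl2 and Maff and the matrix gene Thbs1. In suprabasal cells 4 were lower, among them Zfp36l2 and the Wnt ligand gene Wnt4, and the signal transducer gene Smad5 was higher. These genes were picked for naming after their calls were seen, and no test of the class was made.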
